A study of Mus musculus with 12 samples.

Results

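Extracellular proteases, cathepsins and their inhibitors were followed while mouse embryonic stem (ES) cells differentiated without a directed signal. Members were taken by gene symbol: matrix metalloproteinases (Mmp), the membrane-anchored disintegrin metalloproteases (Adam) and their secreted relatives (Adamts), tissue inhibitors of metalloproteinases (Timp, leaving out Timp1), serpins, and cathepsins with a single-letter name (leaving out Ctss). The rule found 97 genes on 100 probes, of 9212 genes on the array. There were 18 Mmp, 26 Adam, 5 Adamts, 3 Timp, 30 serpin and 15 cathepsin genes. The rule reads gene symbols only, but it was set with earlier results of these data known.

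Messenger RNA was compared on 12 arrays with 2 channels each. One channel of every array held RNA from embryoid bodies (EB), clumps of cells that differentiate from ES cells, after 4, 8, 15 or 21 days, with 3 arrays for each day. For these samples dissociated EB had been plated in DMEM with serum. The other channel held RNA from undifferentiated ES cells of the R1 line, kept on gelatin with leukemia inhibitory factor. Whether the 3 arrays of each day stand for separate cultures is not given in the labels, and the spread behind the p-values may therefore be technical.

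Values are deposited log ratios, read as log2 of EB over ES, so that 1 is a doubling. Both the base and the direction are likely and not settled. The sample titles and dye fields point to ES over EB, the labelling protocols to EB over ES, and the values of known ES and endoderm genes to EB over ES. Were it the other way round, all statements of higher and lower would swap. A gene was called when limma's Benjamini-Hochberg adjusted p, two-sided and over all 10689 features tested, was under 0.05. Means carry standard deviations (SD) over 3 arrays.

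Secreted and membrane-anchored metalloproteases cut matrix proteins and shed proteins from the cell surface, and TIMPs block them. Cathepsins are mostly proteases of the lysosome, where they degrade proteins taken up or turned over by the cell. Most serpins trap serine proteases in an irreversible complex. Those of blood plasma are made largely by liver and, before the liver forms, by yolk sac endoderm, whereas those of clade B mostly stay inside cells.

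Array medians over all features lay between -0.0018 and 0.0106. Of the arrays, 5 had strongly negative values on the 96 corner features that carry no gene (medians -1.54 to -1.04), while the other 7 had corner medians between -0.31 and 0.06. These 5 are called array set 2: array 3 of each day and also array 2 of day 8. At day 21 all 8 measured markers of undifferentiated ES cells were lower in EB. Of 13 visceral endoderm and fetal liver markers 9 were higher, and of 12 mesenchyme markers 8 were higher and 1 lower. Of all features, 8.78% were higher and 9.93% lower at that day. The reading of the ratio as EB over ES was chosen with such markers, so their directions are no separate check of it. Since whole cultures were measured, fewer cells of a type and less RNA per cell cannot be told apart.

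By day 21, 18 members were higher and 6 lower in EB than in ES cells, and cathepsins and serpins supplied most of the higher ones. Of 97 members, 24 were called at that day (24.74%), against 18.7% of all features. The higher calls amount to 18 of the 97 members against 8.78% of all features, a larger share. The lower calls amount to 6 of the 97 against 9.93%, a smaller share. The median over members was 0.06, beside 0.00 over all features. Over the course 27 members were called on at least 1 day (27.84%), against 22.56% of all features, and 70 on none. With both directions counted together, the members' share was thus not far above that of the array as a whole. The difference in shares was not tested.

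Calls came late. At day 4, limma called 0 members, as it called 0 features, and 11 members had an unadjusted p under 0.05. At day 8 it called 2 members, against 2.28% of all features: Ctsh was higher and Adamts5 lower. The day 8 count was 0 without array 2 or array 3 of that day, 1 without array 1 of days 4, 15 or 21 or array 2 of day 21, and 5 without array 2 of day 4 or array 3 of day 15. At day 15 it called 13, of which 10 were higher and 3 lower, against 10.6% of all features (5.66% higher and 4.9% lower). The day 15 count rested on its set 1 arrays: without array 1, or without array 2, of that day a single member was called. The day 21 count was 12 without array 1 of that day. Of the 24 called at day 21, 11 had been called at day 15, while Adam26a and Adam30 were called at day 15 and not at day 21.

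**Figure D1:**
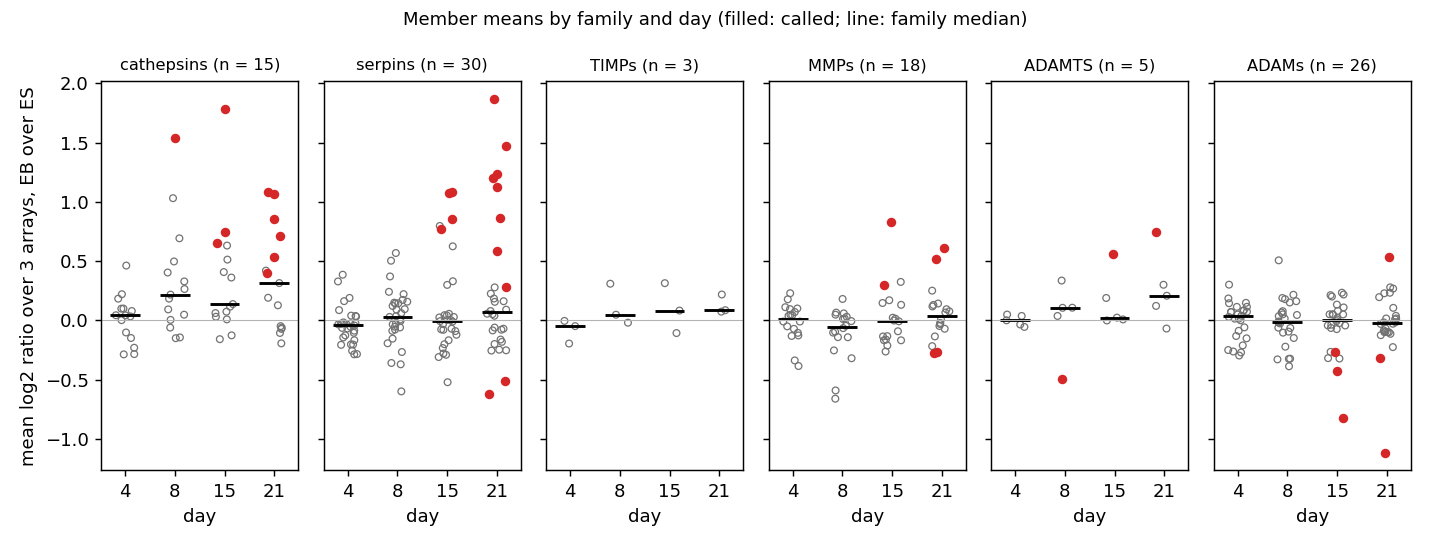
Mean log2 ratio of EB over ES (vertical axis) for every member at days 4, 8, 15 and 21, with 1 panel per family. Filled points passed the test and lines mark family medians; the cathepsin median was 0.31 at day 21 and the medians of the other families lay between -0.02 and 0.21.

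Counts by family at day 21 are a description, beside 8.78% of all features higher and 9.93% lower, and families were not tested against each other. Cathepsins had 6 of 15 higher and 0 lower, and serpins had 8 of 30 higher and 2 lower. The metalloprotease families had 2 higher and 2 lower of 18 Mmp genes, 1 higher and 2 lower of 26 Adam genes, and 1 higher of 5 Adamts genes. For the 3 Timp genes limma called 0 on any day, and 1 of them had an unadjusted p under 0.05 at day 21. When arrays were quantile normalized or scaled to a common spread, the day 21 split was 14 higher and 2 lower under either, and the day 15 split was 8 and 1 with quantiles and 9 and 1 with scaling. Both settings lost the day 21 calls of Adam17, Ctsd, Ctsh, Ctsz, Mmp10, Mmp11 and Serpinb8 and the day 15 calls of Adam26a, Adam30 and Ctsb. Among the named calls of day 21, leaving out any 1 array of that day lost Ctsd, Mmp10 and Mmp11. Without array 1, Adam17, Adamts1, Ctsh, Mmp14, Serpinb8, Serpinc1 and Serpinf2 were lost too. Array 2 also took away Adamts1, Ctsh, Ctsz, Serpinb8 and Serpinc1, and array 3 Adam17 and Mmp14.

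**Figure D2:**
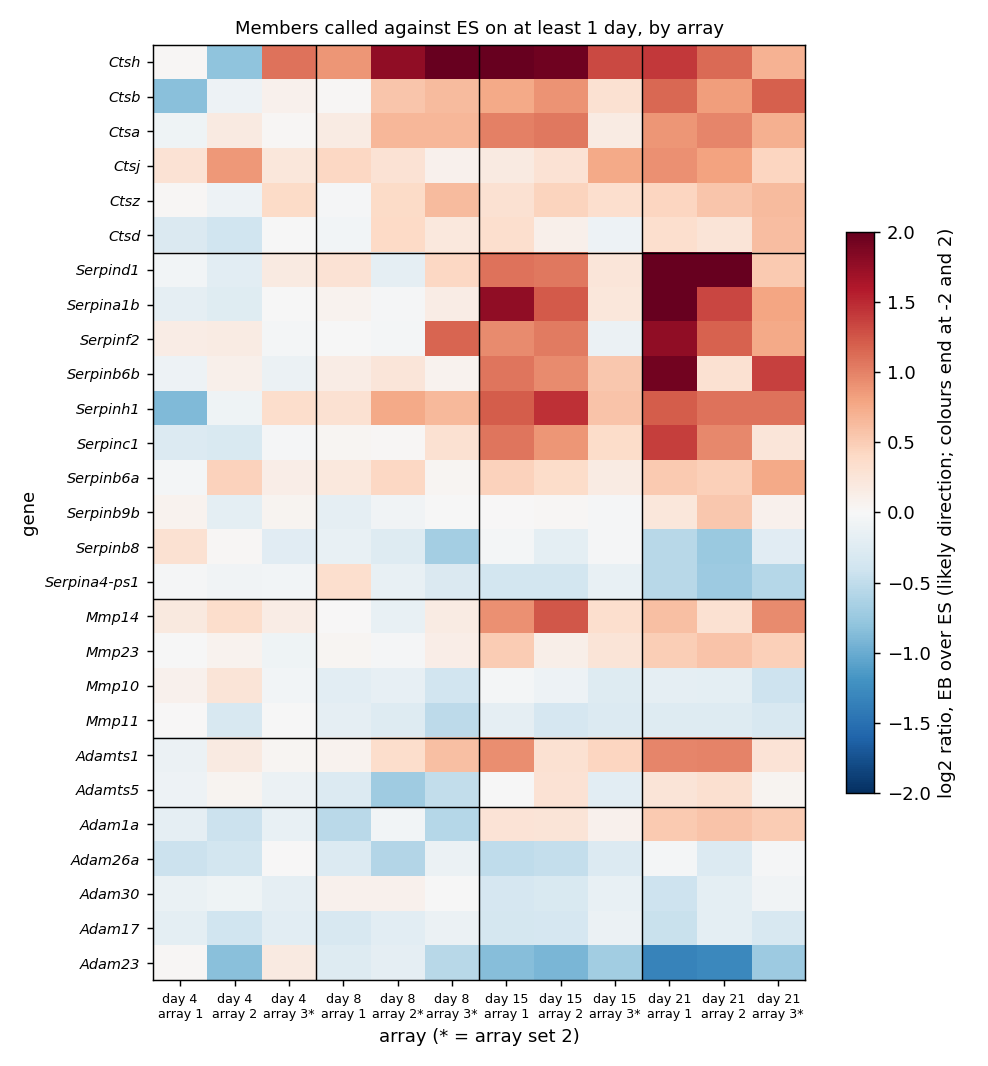
Log2 ratio of EB over ES on each of the 12 arrays (columns, ordered by day) for the 27 members called against ES on at least 1 day (rows, grouped by family). Red is higher and blue lower in EB, and asterisks mark array set 2; the rows of Serpind1, Serpina1b, Serpinf2 and Serpinc1 are paler on array 3 of days 15 and 21 than on arrays 1 and 2, and the 6 cathepsin rows are red on all 3 arrays of day 21.

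At day 21 the 3 highest means among the members were those of plasma serpins: Serpind1, Serpina1b and Serpinf2. Serpind1, heparin cofactor II, an inhibitor of thrombin, stood at 2.76, 2.34 and 0.52 on the day 21 arrays 1 to 3, and at 1.09, 1.06 and 0.24 on those of day 15. At day 8 it had 0.29, -0.19 and 0.41, and at day 4 -0.06, -0.21 and 0.19. All 3 arrays of day 21 lay above all 6 of days 4 and 8, and on both late days the set 2 array was lowest. The day 21 mean was 1.87 ± 1.19 (SD, n = 3), a 3.65-fold level in EB relative to ES, with an adjusted p of 0.00185 from limma. With the array set as a term in the model it was 1.76.

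Serpina1b, a form of alpha-1-antitrypsin, the plasma inhibitor of neutrophil elastase, followed the same order of arrays. It had 2.28, 1.34 and 0.78 at day 21, 1.77, 1.23 and 0.23 at day 15, and between -0.24 and 0.14 on the 6 earlier arrays. Its day 21 mean was 1.47 ± 0.76 (SD, n = 3; limma adjusted p = 0.00267) and its day 15 mean 1.08 ± 0.78 (adjusted p = 0.0221). The mouse has several near-identical Serpina1 copies, and the probe may not tell them apart.

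Serpinc1, antithrombin, and Serpinf2, alpha-2-antiplasmin, the main inhibitor of plasmin, were also higher at day 21. Serpinc1 read 1.39, 0.96 and 0.24 on the day 21 arrays, with a mean of 0.86 ± 0.58 (SD, n = 3; limma adjusted p = 0.0058), and 1.07, 0.88 and 0.36 at day 15 (adjusted p = 0.0172). Serpinf2 read 1.77, 1.17 and 0.76 at day 21, with a mean of 1.23 ± 0.51 (adjusted p = 0.00622). At day 15 its set 1 arrays had 0.95 and 1.04 and its set 2 array -0.11, and the mean did not pass the test (adjusted p = 0.142). Without array 1 of day 21, neither Serpinc1 nor Serpinf2 passed (highest adjusted p over single left-out arrays 0.0742 and 0.0787). Without array 2 of that day, Serpinc1 did not pass either.

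Serping1 and Serpina6, the other members of the plasma group used here, did not pass and were chosen for mention after their values were seen. Serping1, the inhibitor of complement component C1, averaged 0.06 at day 21, and Serpina6, which carries corticosteroids and inhibits no protease, averaged 0.08. Over the 6 serpins of this group, array medians at day 21 were 1.58, 1.07 and 0.39 for arrays 1 to 3, and at day 15 they were 1.01, 0.96 and 0.23. The group was set by hand with earlier results known. Serpina3n and Serpinf1, which were left out of it, did not pass at day 21, and a group with them would have lower medians or a wider mix.

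Markers of visceral endoderm and fetal liver were also higher. Their medians over 13 genes were 0.89, 0.61 and 0.35 on the day 21 arrays 1 to 3 and 0.66, 0.75 and 0.11 on those of day 15, likewise lowest on the set 2 array. The markers did not all share that order of arrays. Apob, which forms lipoproteins, had 2.90, 2.41 and 0.15 at day 21 and 2.43, 1.69 and 0.51 at day 15. Afp averaged 3.60 ± 0.44 and Ttr 3.26 ± 0.50 at day 21 (SD, n = 3), and at day 15 the set 2 array was highest for Afp (3.35, 3.46 and 3.62), Ttr (3.33, 3.32 and 3.45) and Apoa1 (2.72, 2.85 and 2.89). Hnf4a averaged -0.04 and Foxa2 0.11, and neither passed. What part the content of such cells, or the array set, has in the serpin values was not tested.

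**Figure D3:**
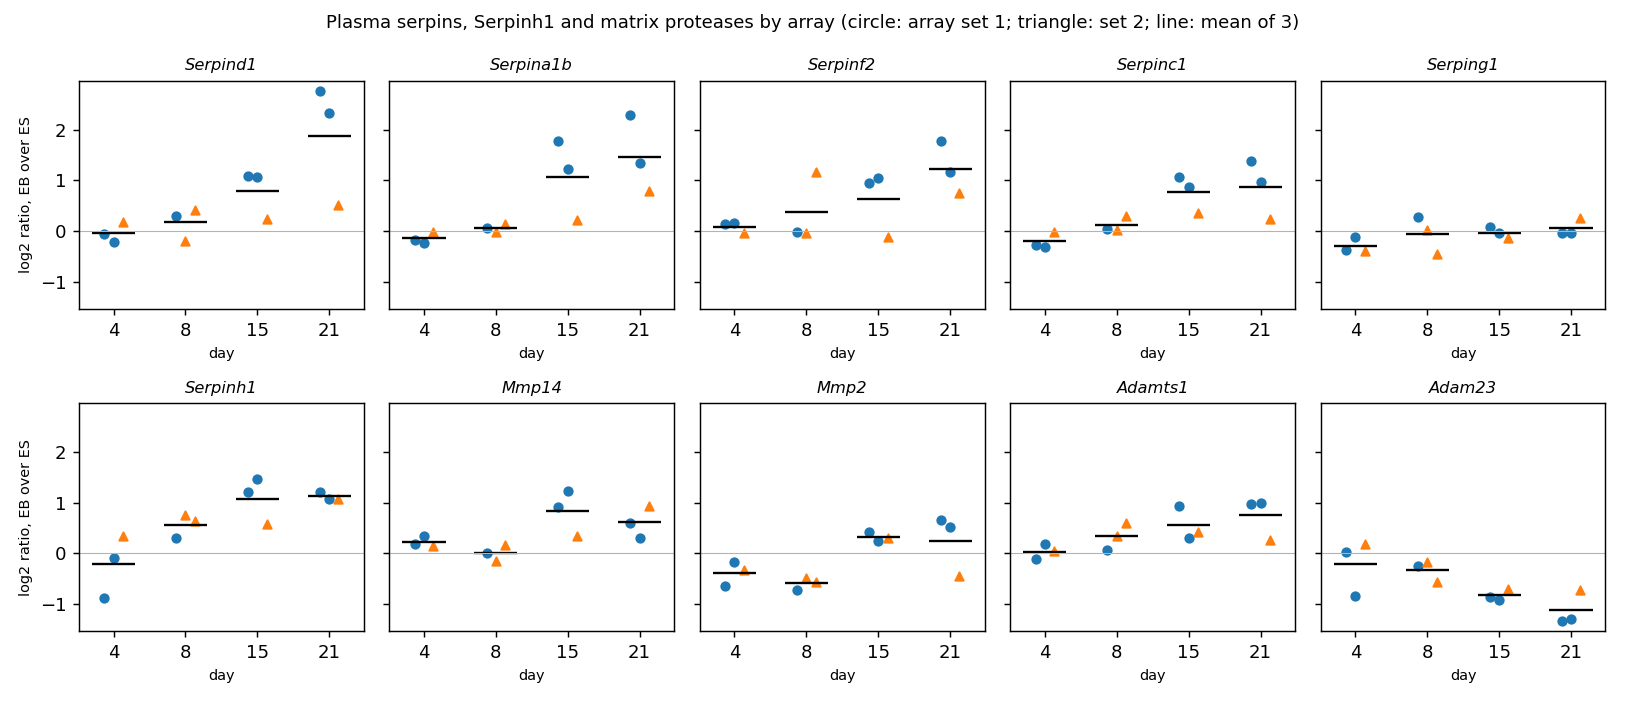
Log2 ratio of EB over ES (vertical axis) by day for plasma serpins, Serpinh1 and matrix proteases, 1 point per array, circles for array set 1, triangles for set 2, lines for the mean of 3 arrays. At days 15 and 21 the triangles of Serpind1, Serpina1b, Serpinf2 and Serpinc1 lie below both circles, while the 3 points of Serpinh1 at day 21 lie between 1.08 and 1.21.

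Serpinh1 is a serpin that inhibits no protease: as Hsp47 it is a chaperone of collagen in the endoplasmic reticulum. It had 1.21, 1.08 and 1.08 at day 21, 1.21, 1.47 and 0.57 at day 15, 0.30, 0.76 and 0.64 at day 8, and -0.89, -0.09 and 0.35 at day 4. The day 21 arrays lay close together and above every array of days 4 and 8. The day 21 mean was 1.13 ± 0.07 (SD, n = 3; limma adjusted p = 0.00248), a 2.18-fold level. Fibrillar collagens were higher at day 21 too, with means of 1.02 for Col1a1, 1.94 for Col1a2 and 1.29 for Col3a1, as part of the mesenchyme markers. Not all of these markers went that way. Thy1 was lower, at -0.59 (limma adjusted p = 0.0462), while Fn1, Twist1 and Pdgfrb averaged -0.07, 0.03 and 0.10 and did not pass. The medians of those 12 markers on the day 21 arrays were 1.18, 0.86 and 0.98. At day 8, when Serpinh1 averaged 0.57 without passing the test, the median of the 12 was -0.15. At that day 4 of 7 parietal endoderm markers were higher, beside 1.23% of all features, and that list had a median of 0.65. Parietal endoderm also makes much matrix. At day 21, 3 of the 7 were higher and 1 lower, beside 8.78% and 9.93% of all features, with a median of 0.28. The part of either cell type in the Serpinh1 values was not tested.

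Among 14 clade B serpins, 3 were higher and 1 lower at day 21, beside 8.78% and 9.93% of all features. Serpinb6b had 1.94, 0.30 and 1.37 at day 21, a mean of 1.20 ± 0.83 (SD, n = 3; limma adjusted p = 0.00258), and 1.07, 0.95 and 0.54 at day 15. Array 2 of day 21 stood apart from the other two, and fitted from the day 21 arrays alone the gene was not called. Its relatives were smaller in size: Serpinb6a averaged 0.59 ± 0.15 and Serpinb9b 0.28 ± 0.24, both called, while Serpinb6c averaged 0.28 and was not called. These 3 were named after their values were seen. Serpinb6a, Serpinb6b and Serpinb6c are close copies, and their probes may share RNA. With the array set as a term Serpinb9b no longer passed (adjusted p = 0.0565).

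Lower serpins at day 21 were Serpina4-ps1 and Serpinb8. Serpina4-ps1, which the annotation names a pseudogene, had -0.56, -0.73 and -0.57, a mean of -0.62 ± 0.10 (SD, n = 3; limma adjusted p = 0.0018). All 3 of these arrays lay below the 9 arrays of the earlier days. Serpinb8, an intracellular serpin, had -0.56, -0.75 and -0.23 at day 21, a mean of -0.51 ± 0.26 (adjusted p = 0.0148). Serpinf1, pigment epithelium-derived factor, a secreted serpin that limits vessel growth, ranged from -0.17 to 0.37 at day 21 and did not pass.

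Of 9 lysosomal cathepsins, 5 were higher at day 21, beside 8.78% of all features, and 0 were lower. All 9 had means above 0, as had 5408 of all 10689 features, and their median was 0.42. Ctsb, a cysteine protease of lysosomes, had 1.15, 0.84 and 1.20 at day 21, 0.75, 0.89 and 0.31 at day 15, 0.03, 0.55 and 0.64 at day 8, and -0.84, -0.10 and 0.08 at day 4. No array of day 21 overlapped those of days 4 and 8. The day 21 mean was 1.06 ± 0.19 (SD, n = 3; limma adjusted p = 0.0014), a 2.09-fold level, and the day 15 mean was 0.65 ± 0.30 (adjusted p = 0.0308).

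Ctsh, an aminopeptidase of lysosomes, had its highest values earlier. It stood at 0.02, -0.80 and 1.08 at day 4, 0.88, 1.77 and 1.98 at day 8, 2.08, 1.94 and 1.32 at day 15, and 1.41, 1.14 and 0.69 at day 21. It was the member called on all of days 8, 15 and 21, with means of 1.54 ± 0.59 (limma adjusted p = 0.0235), 1.78 ± 0.41 (adjusted p = 0.00303) and 1.08 ± 0.36 (adjusted p = 0.0238; SD, n = 3 each). The day 21 mean was lower than that of day 15 by a difference that did not pass (limma adjusted p = 0.851), and 1 day 4 array reached values of day 21. The 2 Ctsh probes disagreed in size at day 21, with means of 1.497 and 0.66, and were closer at day 8, with 1.71 and 1.37.

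Smaller differences were found for Ctsz, Ctsd and Ctsa. Ctsz, a carboxypeptidase, had 0.43, 0.56 and 0.63 at day 21, a mean of 0.54 ± 0.10 (SD, n = 3; limma adjusted p = 0.00794). Ctsd, the main aspartic protease of lysosomes, had 0.33, 0.26 and 0.61, a mean of 0.40 ± 0.19 (adjusted p = 0.0291), and its call was lost whichever array of that day was left out. Ctsa, a serine carboxypeptidase that also stabilises other lysosomal enzymes and is named here after its values were seen, had 0.88, 0.97 and 0.72, a mean of 0.86 ± 0.13 (adjusted p = 0.00261).

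Members of the group that did not pass at day 21 included Ctsl and Ctsk. Ctsl, a lysosomal cysteine protease, had 0.45, 0.35 and 0.46 at day 21 and -0.28 on the set 2 array of day 15 beside 0.87 and 0.95 on the others. Ctsk, which osteoclasts use to degrade bone collagen, averaged 0.19, with a 95% interval of 0.00 to 0.38. Ctsc, which activates proteases of granulocytes and was chosen after its values were seen, averaged 1.03 at day 8, with 0.49, 1.32 and 1.28, and also had 1.36 on the set 2 array of day 4 beside -0.18 and -0.62. Outside the lysosomal group, Ctsj, of a rodent placental cathepsin cluster and also chosen after its values were seen, had a mean of 0.71 ± 0.25 (SD, n = 3; limma adjusted p = 0.00499). Its cluster neighbours Ctsm and Ctsr, chosen in the same way, averaged below 0, and the copies are close in sequence.

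Macrophages are rich in lysosomal cathepsins, and 4 of 8 macrophage markers were higher at day 21, beside 8.78% of all features. Fcgr3, an Fc receptor, averaged 1.28 ± 0.15, and Adgre1, Tyrobp and Fcer1g averaged between 0.37 and 0.65. Ptprc, which marks all white blood cells, averaged 0.07 and did not pass. Array medians of the 8 markers at day 21 were 0.24, 0.32 and 0.44, and those of the 9 cathepsins were 0.43, 0.35 and 0.63. Of 5 trophoblast markers, measured because of Ctsj, limma called 0 at day 21, against 18.7% of all features, with 2 at an unadjusted p under 0.05. At day 8, when Ctsh was called, limma called 0 of the 8 macrophage markers, against 2.28% of all features. Of these markers 3 had an unadjusted p under 0.05. At that day 4 of 13 visceral and 4 of 7 parietal endoderm markers were higher, beside 1.23% of all features. Array 3 of day 4 had 1.08 for Ctsh, 1.36 for Ctsc and 0.71 for Ctsl. Of the visceral endoderm markers it had 1.86 for Ttr, 1.49 for Apoa1 and 1.08 for Cubn, but -0.12 for Alb and -0.20 for Foxa2. The median of all 13 on that array was 0.27, beside -0.01 and -0.05 on arrays 1 and 2 of day 4. The part of any of these cells in the cathepsin values was not tested.

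**Figure D4:**
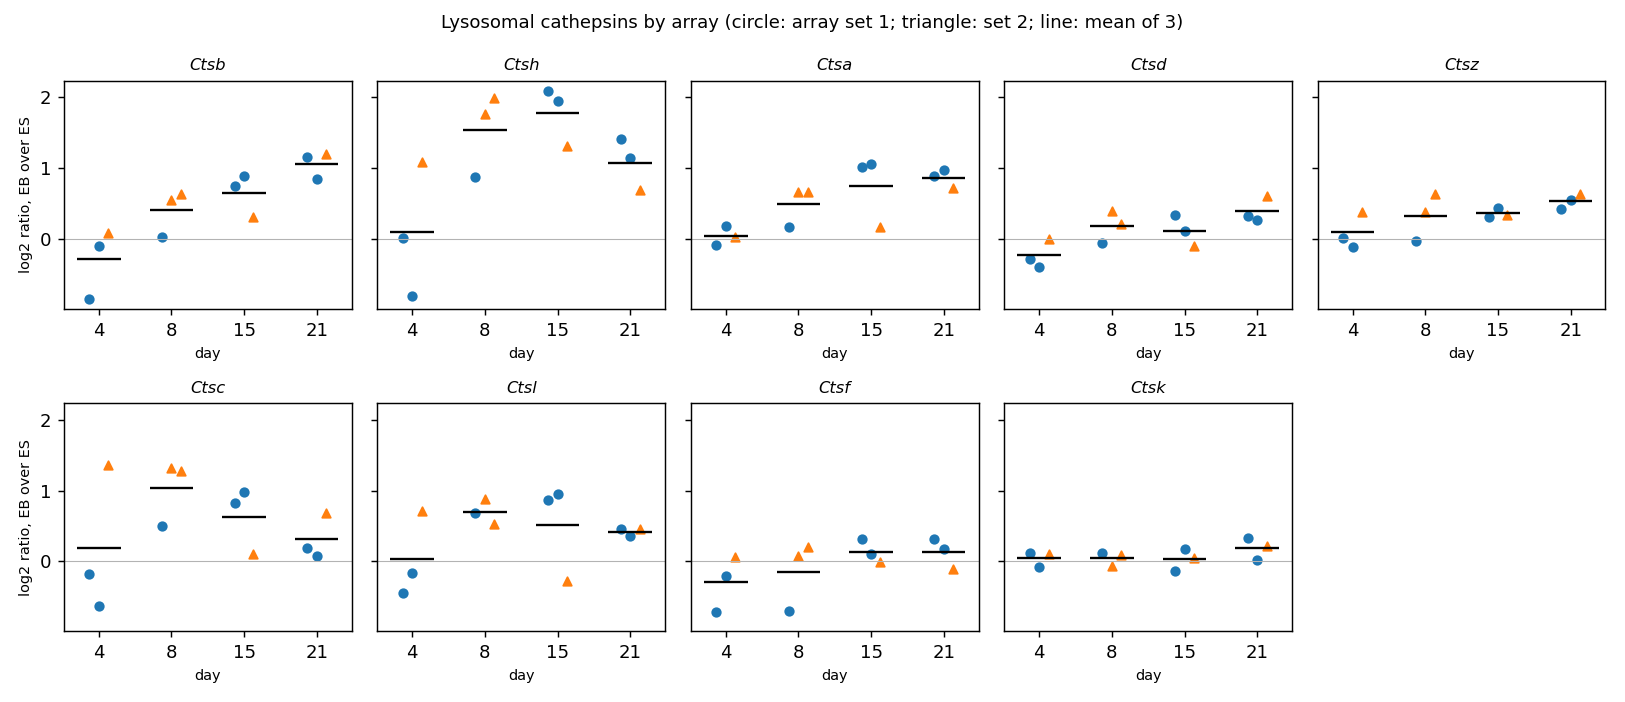
Log2 ratio of EB over ES (vertical axis) by day for the 9 lysosomal cathepsins, 1 point per array, circles for array set 1, triangles for set 2, lines for the mean of 3 arrays. The Ctsb mean is higher at each later day and reaches 1.06 at day 21, whereas that of Ctsh is highest at day 15 with 1.78.

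Stretches of 120 bases upstream of listed start sites are printed for 3 called genes, since a searched motif was found there. Sequences are from RefSeq, build GRCm38.p6, where 66 of the 97 members had such a stretch. They are read in the direction of the gene, and capitals mark the motif. The Serpina1b stretch, chr12:103738190-103738309 on the minus strand, holds GTTAAT, a half-site of the hepatocyte factor HNF1, starting 26 bases before the listed start. The Ctsd stretch, chr7:142387828-142387947 on the minus strand, and that of the second start listed for Ctsa, chr2:164833653-164833772 on the plus strand, hold CACGTG, an E-box, starting 98 and 12 bases before.
Serpina1b: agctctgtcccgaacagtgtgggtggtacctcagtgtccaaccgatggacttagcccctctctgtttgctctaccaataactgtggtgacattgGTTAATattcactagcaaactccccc
Ctsd: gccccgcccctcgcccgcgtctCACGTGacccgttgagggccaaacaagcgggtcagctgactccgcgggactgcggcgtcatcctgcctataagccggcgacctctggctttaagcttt
Ctsa: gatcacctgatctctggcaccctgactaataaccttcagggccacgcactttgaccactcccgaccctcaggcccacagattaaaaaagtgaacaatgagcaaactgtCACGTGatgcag
On either strand, GTTAAT occurred in 3.0% and CACGTG in 3.66% of 32851 such stretches from all genes. Neither these nor TATAAA, found in 6.34%, occurred in the stretches of Serpinc1, Serpind1, Serpinf2, Serpinh1, Ctsz or the first start listed for Ctsa. A match describes these letters and is no evidence of binding.

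Among matrix metalloproteinases, 2 of 5 membrane-anchored members were higher at day 21, beside 8.78% of all features. Mmp14, a membrane protease that cuts collagen and activates Mmp2, had 0.60, 0.30 and 0.94 at day 21, 0.92, 1.24 and 0.34 at day 15, and values between -0.15 and 0.35 on the earlier arrays. The set 2 array was lowest at day 15 and highest at day 21. Its means were 0.61 ± 0.32 (SD, n = 3; limma adjusted p = 0.0139) at day 21 and 0.83 ± 0.46 (adjusted p = 0.00473) at day 15. Mmp23, chosen after its values were seen, averaged 0.52 ± 0.05 at day 21 (adjusted p = 0.00109), with 0.50, 0.57 and 0.48.

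Of the 13 secreted metalloproteinases, 0 were higher and 2 lower at day 21, beside 8.78% and 9.93% of all features. Mmp11, stromelysin 3, had -0.25, -0.26 and -0.32, a mean of -0.28 ± 0.04 (SD, n = 3; limma adjusted p = 0.0423), and Mmp10, stromelysin 2, had -0.19, -0.19 and -0.42, a mean of -0.26 ± 0.13 (adjusted p = 0.0483). Both calls lay near the threshold and were lost whichever array of day 21 was left out. The gelatinases did not pass. Mmp2 had 0.67, 0.52 and -0.44 at day 21, the set 2 array going against the others, and was below 0 on all 6 arrays of days 4 and 8. Mmp9 had -0.71, -0.24 and 0.30.

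The Timp inhibitors of these proteases had small values. Timp2, which also helps Mmp14 to activate Mmp2, had -0.03, 0.14 and 0.11 at day 21, and the 95% interval of its mean ran from -0.12 to 0.27. Timp3, which stays bound to matrix, had 0.42, -0.34 and 0.17, with an interval of -0.25 to 0.42. Timp4, chosen after its values were seen, had the highest Timp mean, 0.22.

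Of the secreted Adamts proteases, Adamts1, which cuts the proteoglycan versican, was higher. It had 0.98, 1.00 and 0.27 at day 21, a mean of 0.75 ± 0.41 (SD, n = 3; limma adjusted p = 0.00576), and 0.94, 0.30 and 0.43 at day 15 (adjusted p = 0.0383). At day 21 its set 2 array was lowest, and the call was lost without either other array. The day 15 call was lost whichever array of that day was left out, without array 2 of day 8, and with day 15 fitted alone. Adamts5, an aggrecanase, was lower at day 8, with -0.27, -0.72 and -0.49, a mean of -0.49 ± 0.22 (adjusted p = 0.0345). Its day 21 arrays had 0.25, 0.31 and 0.06 and did not pass.

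The largest fall among the members was that of Adam23, a brain-rich ADAM without protease activity that takes part in cell adhesion. It had -1.33, -1.29 and -0.72 at day 21, -0.86, -0.92 and -0.69 at day 15, -0.26, -0.17 and -0.56 at day 8, and 0.02, -0.84 and 0.19 at day 4. Array 2 of day 4 overlapped the late arrays and the other two did not. The mean was -1.12 ± 0.34 at day 21 (SD, n = 3; limma adjusted p = 0.00102) and -0.82 ± 0.12 at day 15 (adjusted p = 0.00996). Its neuronal relatives Adam11 and Adam22, both named after their values were seen, averaged -0.03 and -0.10 at day 21 and did not pass.

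Of the 8 ADAMs that shed or process surface proteins, 1 was called at day 21 (12.5%), against 18.7% of all features. Adam17, which releases TNF and ligands of the EGF receptor, had -0.44, -0.19 and -0.32, a mean of -0.32 ± 0.13 (SD, n = 3; limma adjusted p = 0.0182), and was negative on all 12 arrays. Adam10, which cuts Notch receptors, had 0.46, 0.44 and -0.09 and did not pass. Of the 15 ADAMs known mainly from testis, 1 was higher at day 21, beside 8.78% of all features. At day 15, 2 of them were lower, beside 4.9%. Adam1a had 0.53, 0.56 and 0.51 at day 21, above its 9 earlier arrays, 6 of which, at days 4 and 8, were below 0. Its relative Adam1b, named after its values were seen, averaged 0.23 at day 21 and did not pass. Adam26a had -0.51, -0.48 and -0.28 at day 15 (adjusted p = 0.025) and Adam30 had -0.34, -0.31 and -0.14 (adjusted p = 0.0472). The call of Adam30 was lost with the array set as a term (adjusted p = 0.0569).

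Differences between days hold no dye effect that is alike on all arrays, whereas every ratio against ES may hold one, since no array had its dyes swapped. Between day 21 and day 4, 10 members were higher and 2 lower at day 21, against 2.62% and 3.22% of all features (5.84% in all). The largest difference was that of Serpind1, 1.90 (95% interval 0.93 to 2.87; limma adjusted p = 0.0277). It was followed by Serpina1b with 1.61, Ctsb with 1.35, Serpinh1 with 1.33, Serpinb6b with 1.24 and Serpinc1 with 1.07. Ctsa, Adam1a, Ctsd and Mmp23 had differences between 0.53 and 0.81. Adam23 differed by -0.90 and Serpina4-ps1 by -0.58.

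The count of 12 depended on single arrays. It was 2 without array 1 of day 21 or without array 1 of day 4, 3 without array 2 of day 21, and 5 and 6 without arrays 2 and 3 of day 4. Under quantile normalization it was 7 and under scaling 6, all higher. Between adjacent days limma called 0 members, for day 8 against day 4 (0% of all features), day 15 against day 8 (0.178%, with 0.131% higher and 0.0468% lower) and day 21 against day 15 (0.00936%). At an unadjusted p under 0.05 the counts were 8, 10 and 8 members in that order. In the F-test of any difference between days 3 members were called, against 2.9% of all features: Adam1a (adjusted p = 0.0103), Ctsb (adjusted p = 0.0389) and Serpinh1 (adjusted p = 0.0497). That count ranged from 1 to 9 when single arrays were left out: it was 1 without array 1 of day 4, array 2 of day 8, array 1 or 2 of day 15 or array 1 of day 21, 9 without array 3 of day 15, and 5 without array 3 of day 21.

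**Figure D5:**
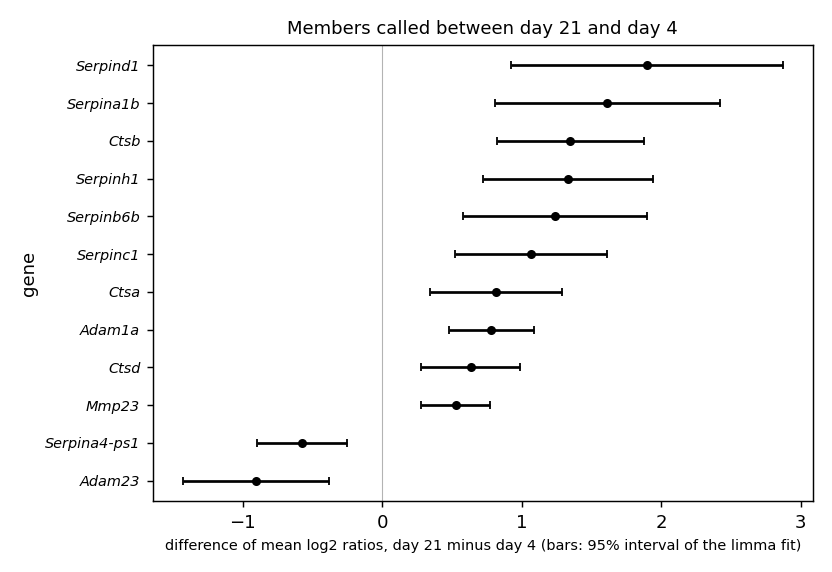
Difference of mean log2 ratios, day 21 minus day 4 (horizontal axis), for the 12 members called in that comparison, with 95% intervals of the limma fit. The 10 positive differences run from 0.53 for Mmp23 to 1.90 for Serpind1, and the 2 negative ones are -0.58 and -0.90.

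Other genes of extracellular proteolysis, from a list outside the 6 families, were called as follows. Of 39 measured, 12 were higher and 2 lower at day 21 (35.9%), against 18.7% of all features (8.78% higher and 9.93% lower). Among the higher were inhibitors: Spink1, a trypsin inhibitor, averaged 2.60 ± 0.18 (SD, n = 3), Itih2, which binds hyaluronan in plasma and matrix, 1.36 ± 0.97, Spint1 0.71 ± 0.12 and Tfpi, the inhibitor of tissue factor, 0.60 ± 0.09. The cystatins Cst3 and Cstb, inhibitors of cathepsins, averaged 0.58 ± 0.10 and 0.59 ± 0.23. Other inhibitors of the list did not pass, among them Spint2, Tfpi2, Cst6, Itih3, Slpi, Wfdc1, Reck and Pzp. Named after their values were seen, these averaged between -0.26 for Pzp and 0.43 for Tfpi2. Igf2r, a receptor that carries enzymes to the lysosome, averaged 0.69 ± 0.44, and Lrp1, which clears complexes of serpins and proteases, 0.51 ± 0.10. On the day 21 arrays Itih2 had 1.89, 1.96 and 0.24 and Igf2r 1.05, 0.81 and 0.20, both lowest on the set 2 array. Lrp1 and Cstb were highest on it.

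Of the plasmin system, Plat, tissue plasminogen activator, averaged 0.78 ± 0.31 (SD, n = 3) and Plg, plasminogen, 0.42 ± 0.20, both called, and Serpinf2, the inhibitor of plasmin, averaged 1.23. Plau, the urokinase activator, and its receptor Plaur averaged 0.09 and -0.19 and did not pass. Sparc, a matrix glycoprotein, averaged 1.17 ± 0.19 and Bsg, which induces metalloproteinases, 0.46 ± 0.16. Lower were Htra1, a secreted serine protease, at -0.83 ± 0.60, and Mme, neprilysin, at -0.59 ± 0.51. Both had values near 0 on the set 2 array, -0.14 and -0.00, beside -0.86 or lower on the others.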

How the data were processed

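The labels describe total RNA made into cDNA, transcribed in vitro with dye-labelled UTP and hybridised as EB and ES pairs. The deposited values are normalized log ratios per the labels, read here as log2; the normalization method, scanner and array design are not given in the sources used here. Spot intensities were not analysed. The table held 11520 features with 0 missing values. Probes were named through the platform annotation, where 10043 had 1 symbol, 29 several and 1448 none, and 10025 matched RefSeq's GRCm38.p6 gene table by Entrez ID with 0 symbols changed. None of the probes with several symbols held a member's symbol. Probes of a gene were averaged, and no filter on low values was applied, so all 97 members were tested.

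The lmFit and eBayes functions of limma 3.58.1 under R 4.3.3 fitted 4 day means to every feature of the 12 arrays, with 8 residual and 4.35 prior degrees of freedom. Day means were tested against 0, the ES channel counting as 1 control sample, so the spread of the control is left out. Days were compared by contrasts and a moderated F-test. On simulated arrays with 200 of 10689 features shifted at day 21, 50% of shifts of 0.5, 90% of 1 and 100% of 1.5 and 2 were recovered, with 17 false calls. The simulated arrays were normal and independent and held no array sets, so recovery and false calls may differ on the real arrays. The number of arrays sets the precision.

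The members, lists and subgroups were chosen with earlier results of these data known. Genes named with values on each array were the called members with 1 sign on all 3 arrays of a day (the 8 largest each way at day 21, the 3 largest each way on earlier days), members called in the F-test, and 19 textbook members, of which 16 were measured; the others were not analysed here. Array sets were found from the corner features, and alternatives with each set alone were added after seeing the data. The other alternatives were quantile normalization, scaling, array weights, probes kept apart, each day alone, the array set as a term, a replicate block and leaving out each array. Plots were drawn with matplotlib 3.10.9.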

Additional observations from a re-analysis of the deposited data

Results flagged for a closer look

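Between EB of day 21 and EB of day 4 the ratio to ES differed by limma's contrast, a test of the difference itself, for 12 members. Differences of mean log2 ratios, day 21 minus day 4, were 1.90 for Serpind1, 1.61 for Serpina1b, 1.35 for Ctsb, 1.33 for Serpinh1, 1.24 for Serpinb6b, 1.07 for Serpinc1, 0.81 for Ctsa, 0.78 for Adam1a, 0.63 for Ctsd and 0.53 for Mmp23. They were -0.90 for Adam23 and -0.58 for Serpina4-ps1. Adjusted p-values ran from 0.0074 for Adam1a to 0.047 for Adam23. With 3 arrays a day, no array was tested for standing apart from its group.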

How the results depend on the processing

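Of 32 calls of named members, 9 held without each single array: Adam1a, Adam23, Ctsb, Serpina1b, Serpina4-ps1, Serpinb6b, Serpind1 and Serpinh1 at day 21 and Ctsh at day 15. Array weights kept 32 of these calls, a model term for the array set 31, and quantile normalization and scaling 22 each. With each day fitted alone 17 held. Among 760 alternatives of 40 named results, 0 called values were counted as reversed. Values that were not called could change sign without being counted. Serpinf1 at day 21 was one of these, with 0.039 in the main fit and -0.008 once the model held the set term. Same-numbered arrays of different days did not all deviate together (correlations from -0.14 to 0.39), so the numbers were not taken to pair arrays. Those of days 15 and 21 did (0.24, 0.15 and 0.39), where they also share an array set, while arrays of different sets on these days had -0.30 to -0.20. With a replicate block 23 members were called at day 21, 14 at day 15 and 11 between days 21 and 4, and 31 named calls held, all but Adam30.

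Leaving out single arrays, calls ranged from 0 to 5 at day 8 (2 with all arrays), 1 to 18 at day 15 (13), 12 to 26 at day 21 (24), 1 to 9 in the F-test (3), 2 to 12 for day 21 against day 4 (12) and 0 to 1 for day 15 against day 8 (0). Family medians at day 21 ranged from -0.0111 to 0.0327 for Mmp and from -0.0606 to -0.018 for Adam. Array set 1 alone gave 0 calls at day 8, 20 at day 15 and 13 in the F-test. Array set 2 alone, with 1 residual degree of freedom, gave 1 at day 4, 6 at day 8, 1 at day 15, 3 at day 21, and 0 both in the F-test and for day 21 against day 4. Array weights gave 15 at day 8 (8 higher, 7 lower), 35 at day 15 (21 and 14), 20 in the F-test and 8 for day 15 against day 8. A day fitted alone gave 0 at day 8 and 4 at day 15. Quantile normalization gave 7 at day 8 (3 and 4) and 7 for day 21 against day 4, and scaling 7 at day 8 (3 and 4), 1 in the F-test and 6 for day 21 against day 4. The causes were not tested.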
